A study of Mus musculus with 6 samples.

Results

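The genes described here are 10 ligands and receptors of the platelet-derived growth factor (PDGF) and vascular endothelial growth factor (VEGF) families: the ligands Pdgfa, Pdgfb, Pdgfc, Vegfa and Vegfc and the receptors Pdgfra, Pdgfrb, Flt1, Kdr and Nrp1. They were taken by gene name from count tables that list 54532 genes, and each name matched 1 row. The cells were YAMC, a line labelled as colonic epithelium of a young adult mouse with wild-type genotype. Its large T antigen of SV40 is temperature-sensitive and driven by the H-2Kb promoter, which interferon-gamma induces, and all cells of both groups were kept at 33 °C with interferon-gamma. In the treated group, 3 libraries came from cells given 2'-fucosyllactose (2'-FL), a fucosylated milk oligosaccharide, at 20 µg/ml for 6 h. In the control group, 3 libraries came from untreated cells, for which the labels give no time.

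PDGF and VEGF ligands are secreted dimers of a shared cystine-knot fold, and most of their receptors are tyrosine kinases of the cell surface. PDGF-A and PDGF-C chains bind the receptor Pdgfra, PDGF-D binds mainly Pdgfrb, and PDGF-B binds both receptors, which are known for the growth and migration of mesenchymal cells. VEGF-A binds Flt1 and Kdr, with neuropilin 1 (Nrp1) as a co-receptor that also serves semaphorins, whereas VEGF-C binds Flt4 and Kdr and mouse VEGF-D binds Flt4. In the gut, epithelial PDGF-A is known to act on Pdgfra-positive mesenchyme below the epithelium, and VEGF-A on the endothelium of the mucosal capillaries. Transcript counts do not measure secreted protein or receptor activity.

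Total counts ranged from 19978583 to 25251187 per library. The label of colonic epithelium was set against marker genes: of 12 colonic epithelial markers, 9 averaged under 1 CPM (counts scaled to a common library total), and Cdx1, Cdx2, Slc26a3 and Car1 had 0 counts in all 6 libraries, which allows up to 0.0231 CPM each and covers counting error only. Keratins Krt19 and Krt8, at 392 ± 52.8 and 307 ± 51.0 CPM (SD, n = 6), were the most abundant of that list. Of other lists, 8 of 9 fibroblast markers and all 5 mesothelial markers averaged above 1 CPM. The collagens Col1a1 and Col3a1 and the uroplakins Upk3b and Upk1b were their most abundant genes. The libraries farthest from the rest on the first and second principal components (28.0% and 21.7% of variance) were 2'-FL replicate 2 and control replicate 1.

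All 10 genes passed the filter on low counts, and none of them passed the test of 2'-FL against control: the edgeR quasi-likelihood test with Benjamini-Hochberg adjustment over 14129 genes called 0 of the 10, beside 0% of all genes tested. The DESeq2 Wald test also called 0 of the 10, beside 0.285% of the 11937 genes to which it gave an adjusted p, and it gave none for Vegfc. With limma-voom the count was again 0 of 10, beside 0% of all genes. At an unadjusted edgeR p under 0.05 there was 1 of the 10, Pdgfa, beside 7.90% of all genes. Log2 fold changes, as 2'-FL minus control, were above 0 for 4 genes and below 0 for 6, with a median of -0.10, where the median of all genes was -0.01 and 51.6% lay below 0. The labels do not say whether replicates were separate cultures, and p-values therefore refer to the spread between these libraries, which may be technical.

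**Figure D1:**
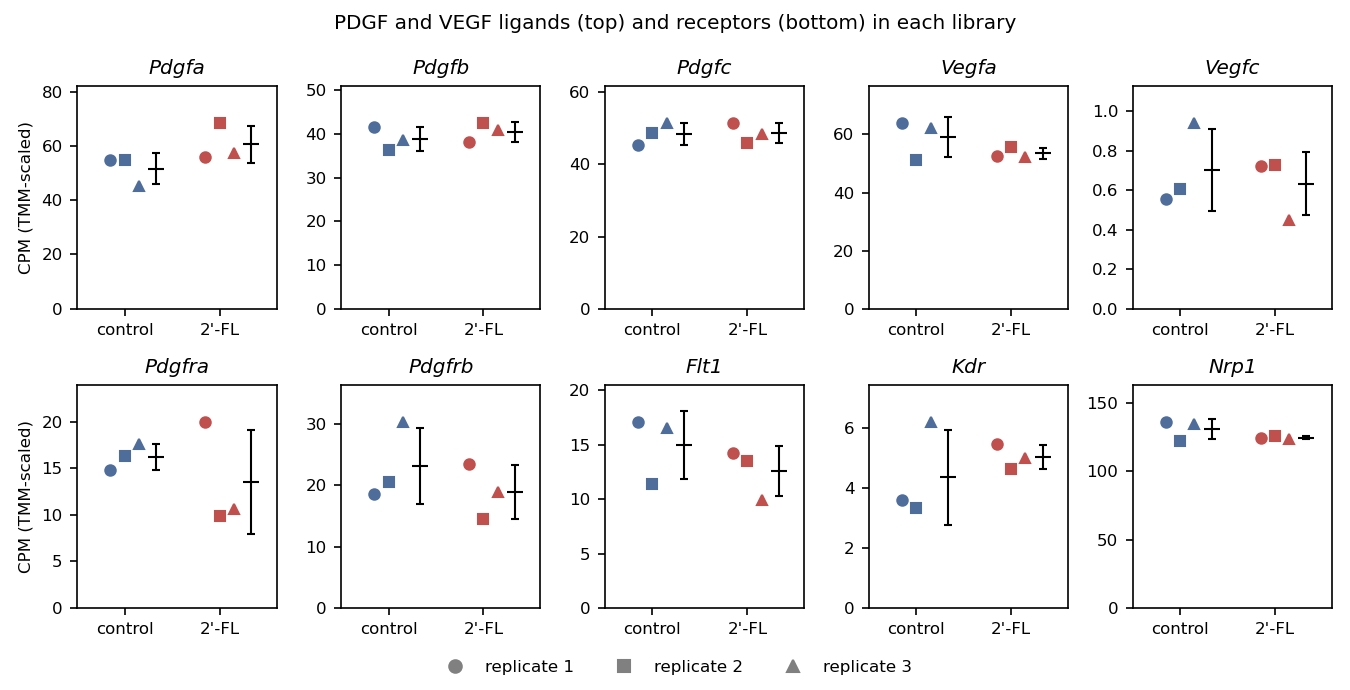
Level of each of the 10 genes in each library, in TMM-scaled CPM on an axis from 0, for control (blue) and 2'-FL (red) cells. Symbols give the replicate number, and the black bar and whiskers are the mean and SD of 3 libraries. Pdgfa is the gene whose groups do not overlap, from 45.1 to 55.0 CPM in controls and from 56.1 to 68.4 CPM with 2'-FL.

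Levels of different genes were compared as CPM per kilobase of gene length. Per length, the order over the 6 libraries ran from Pdgfa (18.0 ± 2.39), Vegfa (13.2 ± 1.28) and Nrp1 (13.1 ± 0.605) through Pdgfc (9.55 ± 0.503), Pdgfb (9.53 ± 0.571), Pdgfrb (3.84 ± 0.981), Pdgfra (1.48 ± 0.394), Flt1 (1.02 ± 0.208) and Kdr (0.520 ± 0.121) to Vegfc (0.273 ± 0.0695), all in CPM per kilobase (SD, n = 6). The ranges of neighbouring genes overlapped between Pdgfa and Vegfa, Vegfa and Nrp1, Pdgfc and Pdgfb, Pdgfra and Flt1, and Kdr and Vegfc. Within a library, Kdr stood above Vegfc in all 6, by 1.48 to 3.01 times, whereas the order in the other 4 pairs was not the same in every library. They did not overlap at the other steps, from Nrp1 to Pdgfc, from Pdgfb to Pdgfrb, from Pdgfrb to Pdgfra and from Flt1 to Kdr. The PDGF ligands thus stood above both PDGF receptors in every library. The level per length of Pdgfa exceeded that of 76.7% of tested genes, that of Pdgfra 24.1% and that of Vegfc 6.26%.

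**Figure D2:**
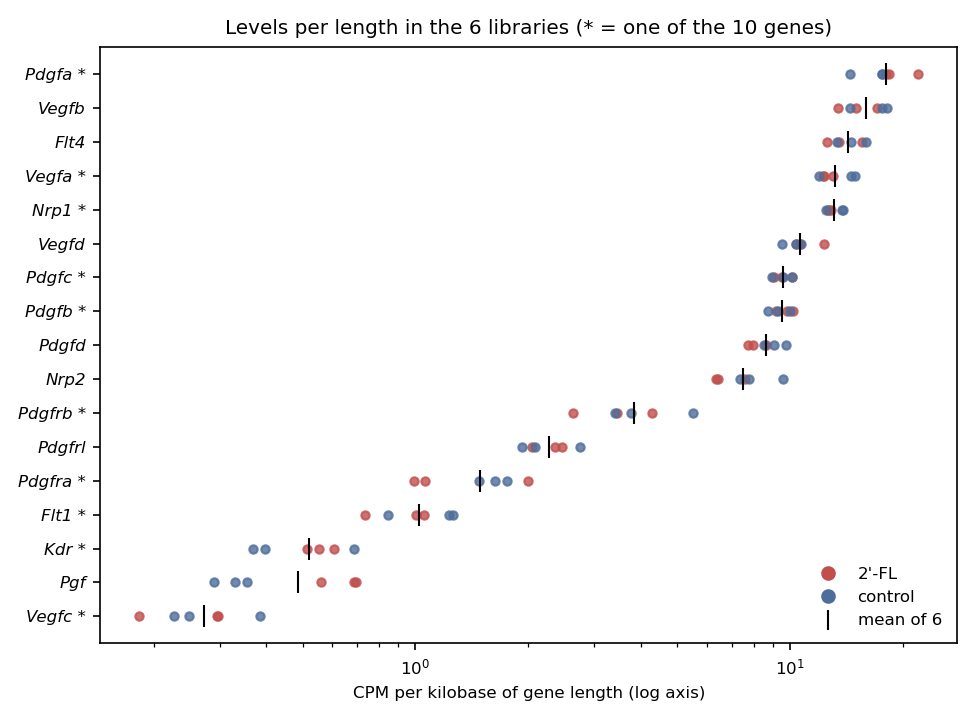
Level per length of the 10 genes (starred) and of 7 other genes of the same families, in CPM per kilobase on a log axis, with 1 point per library and the mean of 6 libraries as a bar. Pdgfa is highest at 18.0 and Vegfc lowest at 0.273 CPM per kilobase.

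Among the PDGF ligands, Pdgfa (ENSMUSG00000025856, chromosome 5, 138976014 to 138997370, minus strand, GRCm38) encodes the A chain. It stood at 56.1, 68.4 and 57.3 CPM in treated replicates 1 to 3 and at 55.0, 54.8 and 45.1 CPM in untreated replicates 1 to 3. Every 2'-FL library lay above every control library, although 2'-FL replicate 1 was only just above the highest controls. Groups that do not overlap with 2'-FL on top were seen in 1 of the 10 genes, beside 6.74% of all genes tested, and with 2'-FL below in 0 of the 10, beside 6.31%. The log2 fold change of Pdgfa was 0.23 ± 0.10 (SE, 95% interval 0.03 to 0.44), and the gene did not pass over all genes (edgeR adjusted p = 0.572, unadjusted p = 0.0279). The value rested on libraries at the ends: it was 0.13 without 2'-FL replicate 2, the library farthest on the first principal component, and 0.15 without control replicate 3. The antisense gene 6330403L08Rik shares 813 exonic bases with Pdgfa, and no source used here says whether the counting used strand. Its counts, from 154 to 243 per library, were small beside the 911 to 1697 of Pdgfa, and its log2 fold change was -0.02 ± 0.15 (SE).

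Pdgfb (ENSMUSG00000000489, chromosome 15, 79995874 to 80014977, minus strand), the B chain, stood at 38.1, 42.5 and 40.8 CPM in treated replicates 1 to 3 and at 41.6, 36.2 and 38.7 CPM in untreated replicates 1 to 3. With overlapping groups, the log2 fold change was 0.06 ± 0.08 (SE, 95% interval -0.12 to 0.23, edgeR adjusted p = 0.897). Pdgfc (ENSMUSG00000028019, chromosome 3, 81036416 to 81214040, plus strand) encodes a ligand that must be cleaved outside the cell before it binds its receptor. Its levels were 51.5, 46.0 and 48.4 CPM in treated replicates 1 to 3 and 45.4, 48.7 and 51.4 CPM in untreated replicates 1 to 3. The group means of Pdgfc, 48.6 ± 2.74 and 48.5 ± 2.98 CPM (SD, n = 3 each), were closer to each other than the libraries of either group. Its 95% interval, -0.16 to 0.17 on the log2 scale, corresponds to folds from 0.894 to 1.13.

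Of the VEGF ligands, Vegfa (ENSMUSG00000023951, chromosome 17, 46016993 to 46032369, minus strand), a growth factor for endothelium that hypoxia induces in many cells, stood at 52.6, 55.7 and 52.3 CPM in treated replicates 1 to 3. In untreated replicates 1 to 3 it stood at 63.9, 51.3 and 62.4 CPM. Control replicates 1 and 3 were higher than all other libraries, while control replicate 2 was the lowest of the 6, so the groups overlapped. Its log2 fold change was -0.14 ± 0.09 (SE, 95% interval -0.33 to 0.04, edgeR adjusted p = 0.721), which became -0.24 when control replicate 2 was left out and -0.08 when control replicate 1 was. Counts are per gene and do not separate the splice forms of Vegfa.

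Vegfc (ENSMUSG00000031520, chromosome 8, 54077606 to 54187096, plus strand), a ligand known for the growth of lymphatic vessels, was barely detected. It had 17, 18 and 9 counts in treated replicates 1 to 3 and 11, 13 and 19 counts in untreated replicates 1 to 3. Both the lowest and the second highest count came from the treated group. At this depth the log2 fold change of -0.13 ± 0.45 (SE) was imprecise. Its 95% interval, from -1.10 to 0.84, corresponds to folds from 0.465 to 1.79. Per length, Vegfa exceeded Vegfc by 37.9 to 66.6 times in the 6 libraries.

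Pdgfra (ENSMUSG00000029231, chromosome 5, 75152292 to 75198215, plus strand), the PDGF receptor alpha, stood at 20.0, 9.92 and 10.6 CPM in treated replicates 1 to 3 and at 14.8, 16.3 and 17.6 CPM in untreated replicates 1 to 3. The treated group held the highest library and both of the lowest, on either side of all controls. Between treated libraries its SD was 5.60 CPM, and between untreated ones 1.39 CPM. The fitted log2 fold change was -0.27 ± 0.20 (SE, 95% interval -0.70 to 0.17, edgeR adjusted p = 0.790). Without 2'-FL replicate 1 it was -0.66 ± 0.14 (SE), still not past the threshold over all genes (edgeR adjusted p = 0.0779).

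Pdgfrb (ENSMUSG00000024620, chromosome 18, 61045150 to 61085061, plus strand), the receptor beta, stood at 23.4, 14.4 and 18.9 CPM in treated replicates 1 to 3 and at 18.6, 20.6 and 30.2 CPM in untreated replicates 1 to 3. Control replicate 3 was far above the rest and 2'-FL replicate 2 lowest, and the groups overlapped. For Pdgfrb the log2 fold change was -0.29 ± 0.18 (SE, 95% interval -0.67 to 0.09, edgeR adjusted p = 0.725), and it was -0.05 without control replicate 3. Both PDGF receptors varied more between replicates than genes of their level did: edgeR's biological coefficient of variation was 0.169 for Pdgfra and 0.149 for Pdgfrb, against 0.0976 and 0.0864 on the trend at their levels. Of the ligands, Pdgfa (0.0826 against 0.0709) and Vegfa (0.0744 against 0.0709) lay above the trend. Pdgfb (0.0694 against 0.0749), Pdgfc (0.0672 against 0.0727) and Vegfc (0.247 against 0.277) lay below it. Of the other receptors, Flt1 (0.133 against 0.100) and Kdr (0.177 against 0.152) also lay above the trend, and Nrp1 (0.0600 against 0.0667) below it. Per length, Pdgfrb exceeded Pdgfra in every library, by 2.14 to 3.25 times, with means of 2.68 ± 0.553 in treated and 2.58 ± 0.486 in untreated cells (SD, n = 3 each).

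Flt1 (ENSMUSG00000029648, chromosome 5, 147561604 to 147726011, minus strand), VEGF receptor 1, which is also made in a soluble form that traps its ligands, stood at 14.2, 13.5 and 9.93 CPM in treated replicates 1 to 3. In untreated replicates 1 to 3 it stood at 17.1, 11.4 and 16.6 CPM. As for Vegfa, control replicates 1 and 3 were the highest, and control replicate 2 lay among the treated libraries. Flt1 had a log2 fold change of -0.25 ± 0.16 (SE, 95% interval -0.60 to 0.10, edgeR adjusted p = 0.746). The counts do not separate the soluble form from the receptor in the membrane.

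Kdr (ENSMUSG00000062960, chromosome 5, 75932827 to 75978458, minus strand), VEGF receptor 2, the main signalling receptor for VEGF-A on endothelium, stood at 5.46, 4.64 and 4.99 CPM in treated replicates 1 to 3 and at 3.58, 3.32 and 6.19 CPM in untreated replicates 1 to 3. The treated libraries were close together and lay between the controls, of which replicate 3 was the highest of all. Kdr had a log2 fold change of 0.21 ± 0.23 (SE, 95% interval -0.30 to 0.71, edgeR adjusted p = 0.866). Flt1 exceeded Kdr per length in all 6 libraries, by 1.33 to 3.18 times.

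Nrp1 (ENSMUSG00000025810, chromosome 8, 128358604 to 128503363, plus strand), the neuropilin co-receptor, was the most abundant of these 5 receptors. It stood at 124, 126 and 124 CPM in treated replicates 1 to 3 and at 136, 122 and 135 CPM in untreated replicates 1 to 3. Control replicates 1 and 3 were again above all other libraries and control replicate 2 below them. Nrp1 had a log2 fold change of -0.07 ± 0.06 (SE), and its 95% interval, -0.21 to 0.07, was the narrowest of the 10 genes, with folds from 0.866 to 1.05 (edgeR adjusted p = 0.833).

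**Figure D3:**
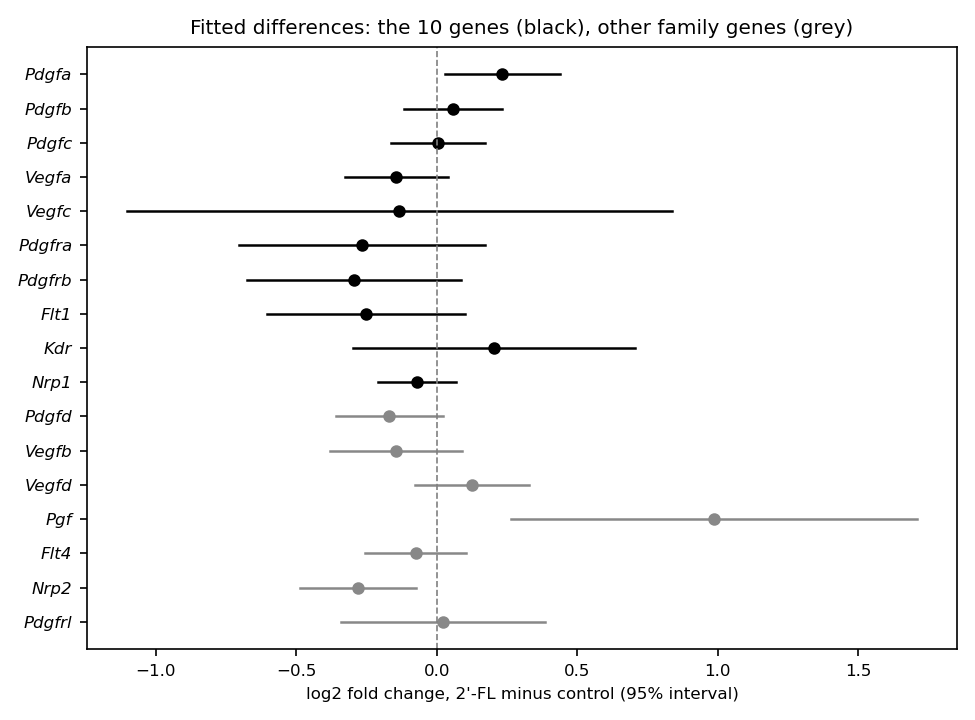
Fitted log2 fold changes of the 10 genes (black) and of 7 other family genes (grey), as 2'-FL minus control, with 95% intervals from the edgeR fit. Intervals of 9 of the 10 genes span 0, and that of Pdgfa runs from 0.03 to 0.44, while 0 of the 17 genes passed over all genes.

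Vegfa and Nrp1, a ligand and its co-receptor, followed each other across the libraries more closely than either followed any other gene. Over the 6 libraries, Pearson's r of their log2 CPM was 0.995 and Spearman's rho was 1. Among 14128 other tested genes, Vegfa ranked 1 by r to Nrp1, and Nrp1 ranked 1 by r to Vegfa. Leaving out genes with Gm, Rik or similar placeholder names, Med12 (r = 0.989) and Zfp609 (r = 0.986) came next for Nrp1. Among those named genes, 248 had r above 0.9 with Nrp1. Control replicates 1 and 3 set much of the range, and among the other 4 libraries r was 0.958. Flt1 followed the same pattern less closely, with r of 0.850 to Vegfa (rank 481) and 0.853 to Nrp1 (rank 468). Its r to Vegfa was 0.501 without control replicates 1 and 3, the libraries farthest from the median of Vegfa. The r of Flt1 to Nrp1 was 0.898 without control replicate 1 and 2'-FL replicate 3, those farthest from the median of Flt1. Of all pairs of the 10 genes, 1 more had r above 0.8, the ligand Pdgfc with the receptor Pdgfrb (r = 0.840, Spearman's rho = 0.886). Among 14128 other genes, Pdgfrb ranked 405 by r to Pdgfc, and Pdgfc ranked 532 by r to Pdgfrb. Without control replicate 1 and 2'-FL replicate 1, the libraries farthest from the median of Pdgfc, r was 0.993. The libraries highest and lowest in Pdgfrb were kept in that value.

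Vegfa, Nrp1 and Flt1 are shown by their promoters, because they make up 3 of the 4 pairs with r above 0.8. Of the 10 genes, 8, all but Pdgfb and Pdgfrb, have a promoter in the RefSeq table for GRCm38.p6; the most upstream start of each was used, and the sequences are the 250 bases before it, on the strand of the gene. The windows are chr17:46032378-46032627 (minus strand) for Vegfa, chr8:128358823-128359072 (plus strand) for Nrp1 and chr5:147726012-147726261 (minus strand) for Flt1. None overlaps an exon in GENCODE M21, but the Nrp1 window lies inside the gene span the files give, since RefSeq starts Nrp1 further downstream. Capitals mark matches on either strand to the GC box GGGCGG, the motif CCAAT, the AP-1 motif TGANTCA, the core of hypoxia response elements ACGTG, and the TATA box TATAAA.
Vegfa: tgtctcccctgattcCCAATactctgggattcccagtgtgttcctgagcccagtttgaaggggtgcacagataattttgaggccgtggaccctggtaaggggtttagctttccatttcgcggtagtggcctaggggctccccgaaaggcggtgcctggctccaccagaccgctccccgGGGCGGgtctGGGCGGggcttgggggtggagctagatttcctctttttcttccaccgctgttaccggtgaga
Nrp1: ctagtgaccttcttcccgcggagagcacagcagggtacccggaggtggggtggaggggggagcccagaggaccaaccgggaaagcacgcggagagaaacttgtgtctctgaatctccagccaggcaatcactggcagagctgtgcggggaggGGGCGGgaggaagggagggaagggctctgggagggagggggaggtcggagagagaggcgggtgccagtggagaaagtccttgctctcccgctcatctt
Flt1: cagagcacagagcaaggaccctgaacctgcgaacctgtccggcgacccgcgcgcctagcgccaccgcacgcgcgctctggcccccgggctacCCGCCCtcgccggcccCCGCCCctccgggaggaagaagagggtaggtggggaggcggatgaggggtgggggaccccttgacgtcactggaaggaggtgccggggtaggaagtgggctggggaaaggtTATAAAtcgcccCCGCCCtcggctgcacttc
GGGCGG occurred 2 times for Vegfa, 1 time for Nrp1 and 3 times for Flt1, and it was present in 32.7% of the 32851 promoter windows of the same length in the table. CCAAT occurred 1 time in the Vegfa window and in 33.8% of all windows, and TATAAA 1 time in the Flt1 window and in 12.4% of all windows. None of the 3 windows held TGANTCA or ACGTG, which 6.75% and 16.6% of all windows hold. Each window covers only 250 bases before 1 start, and sequence outside it was not searched. GC content was 59.2% for Vegfa, 64.4% for Nrp1 and 70.4% for Flt1, against a median of 52.4% over all windows. A match is a description of the letters and not evidence of a bound site.

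Pdgfa and Pdgfrb ran in opposite directions. Their r was -0.938 over the 6 libraries and Spearman's rho -0.714, the only value below -0.8 among 45 pairs of the 10 genes, where 4 pairs lay above 0.8. Libraries at opposite ends carried it: 2'-FL replicate 2 had the highest Pdgfa (68.4 CPM) and the lowest Pdgfrb (14.4 CPM), and control replicate 3 the lowest Pdgfa (45.1 CPM) and the highest Pdgfrb (30.2 CPM). Among the other 4 libraries r was -0.03. Without placeholder names, the genes most like Pdgfa were Park7 (r = 0.994), Prelid1 (r = 0.993) and Dnajb11 (r = 0.992). They came out of 287 such named genes with r above 0.9. These correlations describe 6 libraries and were not tested.

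**Figure D4:**
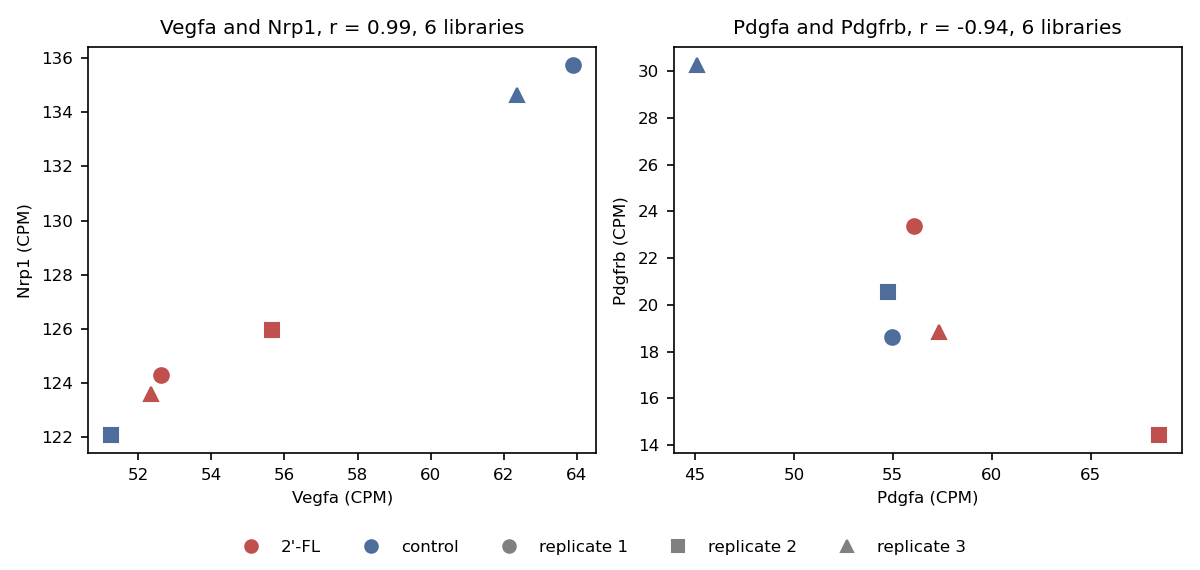
Level of Nrp1 against Vegfa (left) and of Pdgfrb against Pdgfa (right) in each library, in CPM, with colour for the group and symbol for the replicate number. The r in each title is over log2 CPM of the 6 libraries, 0.99 and -0.94; axes do not start at 0.

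The other 7 genes of the families were measured as well, and 0 of 7 passed by edgeR over all genes, with 2 (Pgf and Nrp2) at an unadjusted p under 0.05, beside 7.90% of all genes. Flt4, the receptor for VEGF-C and VEGF-D, was far more abundant than the other VEGF receptor kinases, at 14.2 ± 1.32 CPM per kilobase (SD, n = 6) against 1.02 for Flt1 and 0.520 for Kdr, with no overlap in range. Its ligand Vegfd, at 10.6 ± 0.918 CPM per kilobase, likewise stood above Vegfc in all libraries. Vegfb, a ligand of Flt1, was at 15.9 ± 1.90, Pdgfd at 8.60 ± 0.739, Nrp2 at 7.50 ± 1.17 and the receptor-like Pdgfrl at 2.27 ± 0.306 CPM per kilobase (SD, n = 6).

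The value farthest from 0 among the 17 family genes was that of Pgf, placental growth factor, a further ligand of Flt1 and Nrp1. Its counts were 38, 50 and 40 in treated replicates 1 to 3 and 19, 22 and 17 in untreated replicates 1 to 3, so that the groups did not overlap. The log2 fold change of 0.99 ± 0.34 (SE, 95% interval 0.26 to 1.71) did not pass over all genes (edgeR adjusted p = 0.502, unadjusted p = 0.0109). Nrp2 stood at 89.6, 75.0 and 76.0 CPM in treated cells and at 87.1, 92.1 and 113 CPM in untreated cells, with overlap in 2'-FL replicate 1. Its log2 fold change of -0.28 ± 0.10 (SE) did not pass either (edgeR adjusted p = 0.502).

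Other genes of the pathways were counted from lists of named genes, and by edgeR 0 passed over all genes in each list, as by DESeq2 and limma-voom. Their counts at an unadjusted edgeR p under 0.05 stand beside 7.90% of all genes tested. Of 11 tested semaphorins and plexins, the partners of neuropilins, 4 had log2 fold changes above 0 and 7 below, with a median of -0.07 and 0 at an unadjusted p under 0.05. The semaphorin Sema3c was the most abundant, at 918 ± 33.3 CPM (SD, n = 6) with a log2 fold change of 0.04 ± 0.06 (SE), followed by Sema3a at 350 ± 21.1 CPM (SD, n = 6) with 0.01 ± 0.07 (SE). Among 11 tested genes that process or bind the ligands, 5 were above 0 and 6 below, with a median of -0.04 and 3 at an unadjusted p under 0.05. Those 3 were the proprotein convertase Pcsk6, at 0.21 ± 0.06 (SE), Sparc, a matrix protein that binds PDGF, at 0.17 ± 0.07 (SE), and the endocytic receptor Lrp1, a partner of Pdgfrb, at -0.33 ± 0.12 (SE). Of 20 genes of receptor signal transduction, 10 were above 0 and 10 below, with a median of -0.0049 and 1 at an unadjusted p under 0.05, the ubiquitin ligase Cbl at -0.24 ± 0.08 (SE). The phosphatase Ptpn11 had 0.03 ± 0.07 and the adaptor Grb10 0.04 ± 0.07 (SE).

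Because Vegfa is a target of hypoxia-inducible factors, their regulators and other targets were read beside it. The 8 genes of oxygen sensing had a median log2 fold change of -0.01 and 0 at an unadjusted p under 0.05, with the factors Hif1a at 0.05 ± 0.07 and Arnt at -0.02 ± 0.07 (SE). The target Adm had too few counts to be tested. It had 11, 10 and 6 counts in treated replicates 1 to 3 and 0, 4 and 2 in untreated replicates 1 to 3. Of the 11 other targets, which were tested, 3 were above 0 and 8 below, with a median of -0.10. At an unadjusted edgeR p under 0.05 there were 2, beside 7.90% of all genes in either direction. Both were lower, the mitochondrial protein Bnip3 at -0.32 ± 0.12 and the hexokinase Hk2 at -0.32 ± 0.11 (SE). The glycolytic genes Ldha and Pgk1 were the most abundant, at -0.03 ± 0.08 and -0.06 ± 0.08 (SE). Control replicates 1 and 3, the libraries highest in Vegfa, were also the 2 highest in 4 of the 11 (Slc2a1, Pdk1, Bnip3 and Hk2), beside 1418 of all 14129 genes tested, a count made after the values were seen. In Ldha and Pgk1, control replicate 1 was the highest library (995 and 952 CPM), and control replicate 3 stood at 832 and 750 CPM. The part of hypoxia signalling in the Vegfa values was not tested.

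**Figure D5:**
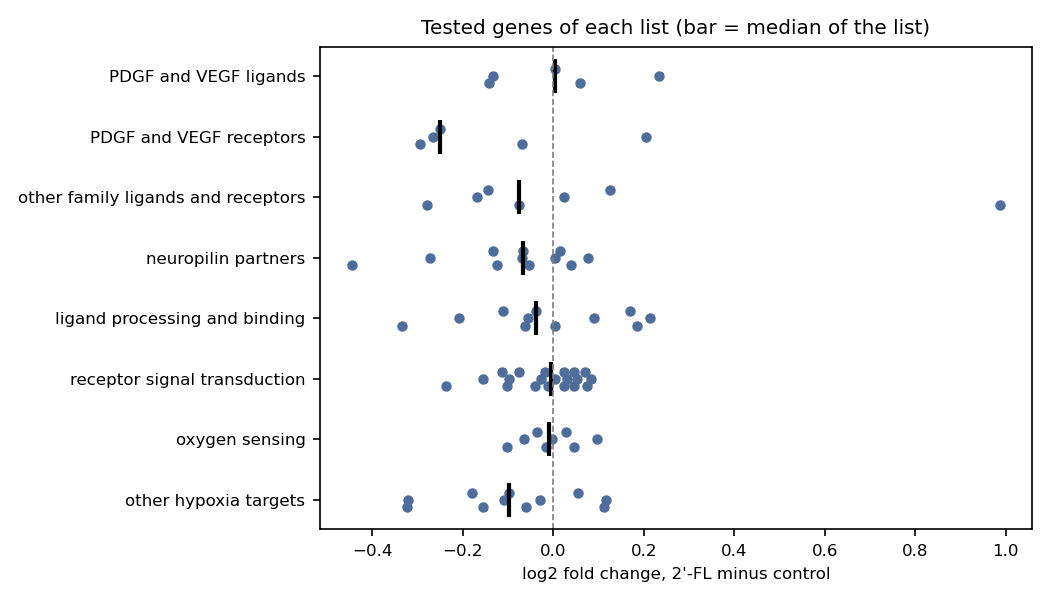
Log2 fold changes of the tested genes of the ligand, receptor and pathway lists, without the lists of cell type markers, as 2'-FL minus control, with 1 point per gene and the median of the list as a bar; vertical offsets within a list carry no value. Medians lie between -0.25 for the 5 PDGF and VEGF receptors and 0.0039 for the 5 ligands.

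VEGF receptors and PDGF receptors are known as markers of endothelium and of mesenchymal or mural cells, so markers of those cells were read in the same libraries. In bulk samples, fewer cells of a type and less RNA per cell cannot be told apart. Of 12 endothelial markers, 8 averaged under 1 CPM: Emcn had 0 counts, and Erg, Tie1, Cldn5, Vwf, Cdh5, Sox18 and Pecam1 had 1 to 37 counts over all 6 libraries. The other 4 were measured at 41.3 CPM for Esam, 12.1 for Eng, 11.8 for the angiopoietin receptor Tek and 3.40 for Egfl7. Per length, Tek stood at 2.50 CPM per kilobase, above Flt1 and Kdr. The summed level of the list ranged from 66.9 to 75.2 CPM in treated and from 66.7 to 68.0 CPM in untreated cells. Eng, a co-receptor of the TGF-beta family, had a log2 fold change of 0.57 ± 0.13 (SE) and was the 1 endothelial marker called by the DESeq2 Wald test (adjusted p = 0.0413), but not by edgeR (adjusted p = 0.203). The part of endothelial cells in the receptor values was not tested. Of 8 pericyte markers, 5 averaged under 1 CPM, Kcnj8 with 0 counts and Rgs5 with 2. Mcam and Notch3 made up most of their sum, which ranged from 565 to 677 CPM in treated and from 474 to 511 CPM in untreated cells. Mcam, at 0.37 ± 0.08 (SE), was the 1 pericyte marker called by DESeq2 (adjusted p = 0.00736), but not by edgeR (adjusted p = 0.203). These DESeq2 calls stand beside 0.285% of all genes with an adjusted p. By limma-voom neither Eng nor Mcam was called (adjusted p = 0.273 and 0.227).

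Of 8 smooth muscle markers, Myh11 and Actg2 averaged under 1 CPM, with 50 and 48 counts over all 6 libraries, and were not tested. The 6 that were tested all had log2 fold changes above 0, with a median of 0.68. Cald1 and the actin Acta2 were the most abundant, at 0.17 ± 0.07 and 1.01 ± 0.20 (SE). By edgeR 0 of the 6 passed over all genes, with 6 at an unadjusted p under 0.05, beside 7.90% of all genes. By DESeq2, Myl9 and Tpm2 passed, 2 of the list beside 0.285% of the genes with an adjusted p, and limma-voom called 0. Their summed level ranged from 1823 to 2335 CPM in treated and from 1643 to 1764 CPM in untreated cells. Fibroblast markers summed to between 9208 and 10590 CPM in treated and between 8702 and 9015 CPM in untreated cells. Of the 8 fibroblast markers tested, 7 had log2 fold changes above 0 and 1 below, Dcn at -0.07, with a median of 0.10. The PDGF receptors had fitted log2 fold changes of -0.27 for Pdgfra and -0.29 for Pdgfrb. Both intervals spanned 0, from -0.70 to 0.17 for Pdgfra and from -0.67 to 0.09 for Pdgfrb. Without control replicate 3, Pdgfrb was at -0.05. The part of fibroblasts and smooth muscle cells in the receptor values was not tested. Of 6 leukocyte markers, 4 averaged under 1 CPM, Cd3e with 0 counts, and Cd68 and Csf1r were the most abundant.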

How the data were processed

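RNA of 3 libraries from 2'-FL-treated and 3 from untreated YAMC cells was sequenced. What the authors deposited is 1 file per library with unnormalized whole-number counts for each gene. Per the submitters' processing notes, the tools were bcl2fastq, FastQC 0.11.9 and Bowtie2 (given as 2.7.3a), and the build is named as GRCh38, but the files hold mouse gene identifiers: 54495 of 54532 are in GENCODE M21 for GRCm38, 98.33% of those with the same start and end, as were all 10 genes described. No source used here gives the counting program or its use of strand. Gene lengths are the files' own and equal the union of GENCODE exons for all 10.

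The members and lists were chosen with earlier results of these data known. In R 4.3.3 with edgeR 4.0.16, filterByExpr with its default minimum count of 10 left 14129 genes, TMM factors scaled the library totals, and the quasi-likelihood F-test compared the groups, with a threshold of 0.05 after Benjamini-Hochberg adjustment. Standard errors and 95% intervals came from the F statistic. CPM are counts scaled to a common library total with TMM factors. Correlations used log2 CPM with a prior count of 2. Neighbouring levels were called separate where their ranges over 6 libraries did not overlap. Libraries differed in pairs by a chi-square of 5.26 to 19.0 per gene, so each was counted once.

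All 10 genes were named, with the other family genes and the 2 most abundant genes of each further list. For the ligand and the receptor highest per length, the 3 genes most alike in pattern were named, leaving out Gm, Rik or similar names. Other genes and markers printed were chosen after their values were seen. Counts for 2'-FL against control were also simulated, over 13920 genes. Each gene was drawn independently in each library, so shifts shared by many genes of a library were not simulated. In them the fit recovered 36% of 50 genes changed by a fold of 1.25, 66% at 1.5, 76% at 2 and 96% at 3. Of 143 calls, 6 were in unchanged genes. In the measured counts the fit called 0 genes. There Acta2, at a fold of 2.02, had an edgeR adjusted p of 0.197, and Pgf, at 1.98, had 0.502. Recovery in the measured counts was not tested. Alternatives were other scalings, filters, DESeq2 1.42.0, limma-voom (limma 3.58.1), robust estimation, a replicate block and each library left out. Leaving out both libraries farthest on the principal components was added after seeing the data. Same-numbered libraries did not deviate together (correlations from -0.12 to -0.05), so numbers were not taken as pairs.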

Additional observations from a re-analysis of the deposited data

How the results depend on the processing

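The count of the 10 genes called was 0 under all 16 alternatives. The count over all genes, 0 with edgeR as set out, was 158 without a filter on low counts, where the prior degrees of freedom were infinite, 34 by the DESeq2 Wald test, 5 with robust estimation, and 0 to 28 with 1 library left out, 21 of them without 2'-FL replicate 1 and 28 without control replicate 2. With the replicate block it was 1, and the block left all 10 genes uncalled; same-numbered libraries correlated at -0.12, -0.07 and -0.05, so the numbers were not read as pairs.

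Of 159 log2 fold changes of the 10 genes under the alternatives, 153 kept their sign, none past the threshold, and the lowest adjusted p was 0.0779, for Pdgfra without 2'-FL replicate 1. Those that changed sign were Pdgfc, at -0.0056 with library totals only, -0.0015 without both libraries farthest on the principal components and -0.040 to 0.053 with 1 library left out, and Vegfc, at -0.27 to 0.14 with 1 library left out. With 1 library left out, Pdgfra ranged from -0.66 to -0.08, Pdgfrb from -0.48 to -0.05, Flt1 from -0.42 to -0.11, Kdr from 0.04 to 0.55, Pdgfa from 0.13 to 0.29, Vegfa from -0.24 to -0.08, Nrp1 from -0.12 to -0.04 and Pdgfb from 0.01 to 0.11. Vegfc has no value with the stricter filter of 1 CPM in 3 libraries. Levels per kilobase moved by less than their SD in 70 of 70 cases. Most of these cases left out 1 of 6 libraries, which cannot move a mean that far, so their count tests nothing. The cause of the shifts in log2 fold change was not tested. Depth limits Vegfc, at 87 counts over 6 libraries, and Pgf, at 186.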
